A study of Mus musculus with 2 samples.

Results

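Type I interferon-stimulated genes are described here in single cells of the mouse colon. The set holds 39 genes chosen by their symbols, of which 38 were found among 31053 genes, and Mx2 was not analysed here. The members were chosen with their levels in these libraries already known, so every value of a member is a description, and no test was made on it.

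Cells of the colon lamina propria were profiled by droplet-based single-cell RNA sequencing in WT mice and in mice with a LncRNA17Rik knockout (KO; the study names this long non-coding RNA lncLy6c). The deletion was not checked on the counts, so KO and WT stand for the libraries with these labels. Cells came from pooled male mice aged 8 weeks, with 6 mice given and no statement of whether that number is per genotype. They had been separated on a Percoll gradient and sorted, with dead cells removed by 7-AAD staining. The comparison therefore rests on 1 WT and 1 KO library, and no test between genotypes is possible. The counted unit is the UMI (unique molecular identifier, 1 per captured transcript), and levels are given as counts per 1000000 UMIs of the same cells (CPM). Because the kit reads transcript ends, levels were compared between libraries and not between genes. Where the share of a gene in a summed level is given, it describes UMI counts only.

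The filter of the study left 2597 WT and 2514 KO cells, with a median of 5073 and 6564.5 UMIs per cell. No barcode was shared among the kept cells of the libraries, and 1 was shared among all deposited barcodes. Clustering without the interferon genes gave 21 clusters, of which 19 carried the markers of a cell class and 2 stayed unnamed. Although the label of the cells is cd11b+, clusters with markers of T cells, B cells, plasma cells and epithelial cells were present. Epithelial cell-like cells numbered 144 in the WT and 17 in the KO library, and plasma cell-like cells 235 and 5, so the libraries also differed in which cells they held. Composition and genotype cannot be told apart with 1 library per genotype.

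Type I interferons, the IFN-α proteins and IFN-β, bind the receptor made of IFNAR1 and IFNAR2, which activates the kinases JAK1 and TYK2. These kinases activate ISGF3, a complex that contains STAT2 and IRF9 and binds the interferon-stimulated response element in the promoters of target genes. A subset of the targets, among them Isg15, Ifit1, Ifit2 and Rsad2, can also be induced directly by IRF3 after a cell senses viral or bacterial nucleic acid, without interferon. In the intestine, macrophages and dendritic cells are known sources of IFN-β in response to microbial products.

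The promoters show what many members share beyond their names. RefSeq promoter windows on GRCm38.p6, which run from 250 bases before to 50 bases after a start site, were found for 29 of the members. The core of the response element, the letters GAAA followed by any 2 bases and GAAA again, read on either strand with overlapping matches counted, was present in 15 of these 29 members (51.7%), compared with 1079 of 27025 genes (3.99%) in the same table. The longer form, with a C added at the end, was found in 12 members (41.4%) and in 0.944% of all genes. A match of these letters is not a measured binding site.

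The following windows are shown as examples of members with a match that were at least 2-fold apart between the libraries in macrophages, with Isg15, Ifit1 and Rsad2 higher in the KO library and Oas3 and Slfn5 lower. Each is read 5′ to 3′ on the strand of its gene, and the capitals mark the matches to the core. The windows lie at chr4:156200860-156200911 (Isg15, minus strand), chr19:34640770-34640828 (Ifit1, plus strand), chr12:26456548-26456587 (Rsad2, minus strand), chr5:120777710-120777749 (Oas3, minus strand) and chr11:82951932-82951971 (Slfn5, plus strand), all upstream of the start site.
Isg15: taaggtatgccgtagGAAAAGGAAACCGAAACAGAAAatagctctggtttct
Ifit1: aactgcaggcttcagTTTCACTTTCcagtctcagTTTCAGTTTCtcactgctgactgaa
Rsad2: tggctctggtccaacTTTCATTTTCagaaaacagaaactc
Oas3: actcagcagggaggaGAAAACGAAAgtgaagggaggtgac
Slfn5: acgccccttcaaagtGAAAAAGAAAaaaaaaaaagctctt

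The first match in Isg15 starts 78 bases before the start site, and that in Ifit1 starts 104 bases before it. The core was present both in members higher in the KO resident macrophage-like cells (4 of 6 with a window: Ifih1, Isg15, Ifit1 and Rsad2) and in members lower there (3 of 9: Oas1a, Oas3 and Slfn5). Among the members within 2-fold, 7 of 13 held it. Oasl1 and Ifit2, which were among the highest, held no match in this window, nor did Irf7 and Lgals3bp, the lowest in the main grouping.

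Resident macrophage-like cells, a single cluster in which all 12 of the resident markers were raised (C1qa, C1qb, C1qc, Apoe and Ms4a7 among its leading genes), numbered 313 in the WT and 138 in the KO library. In these cells the members split rather than moving together. Oasl1, Ifit1, Ifit2, Isg15, Rsad2 and Ifih1 were at least 2-fold higher in the KO library, and 14 members were at least 2-fold lower, among them the transcription factors Irf7 and Irf9. A member was compared where it had at least 20 UMIs in both libraries summed, which 37 of 38 had in these cells, and the ratio was taken with 1 CPM added to each level. Of all 8306 genes with at least 20 UMIs, 3.60% were at least 2-fold higher and 7.75% at least 2-fold lower in the KO library, compared with 6 and 14 of the 37 members (16.2% and 37.8%). The median log2 ratio of the members was -0.66, and that of all genes was -0.20. Intervals given with a ratio are exact 95% intervals of the UMI counts without the added level. They cover counting error only and do not include the variation between mice.

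Among the transcription factors that carry the interferon signal, Irf7, the factor that amplifies type I interferon expression, had 253 UMIs in the WT and 21 in the KO resident macrophage-like cells. This corresponded to 129 and 16.8 CPM, with a log2 ratio of KO to WT of -2.87 (interval -3.66 to -2.30). It was the lowest of all members in these cells in the main grouping. Under the alternatives run the log2 ratio of Irf7 lay between -4.23 and -0.91, so neither 2-fold nor this rank held in all of them. Irf9, the DNA-binding subunit of ISGF3, had 65.1 CPM in the WT and 23.9 in the KO cells, a log2 ratio of -1.41 (-2.07 to -0.86). Stat2, another subunit of ISGF3, was closer, at 53.9 and 35.9 CPM (log2 ratio -0.57, -1.12 to -0.07). All of these factors were therefore lower in the KO library, Irf7 the most in the main grouping. The log2 ratio of Irf9 lay between -2.07 and -1.11 under the alternatives, so Irf7 was not the lowest factor in all of them.

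The sensors of foreign nucleic acid did not follow a common direction. Ifih1, which encodes the RNA sensor MDA5, was at 61.5 CPM in the WT and 168 in the KO cells (log2 ratio 1.44, 1.12 to 1.79). Zbp1, a sensor of Z-form nucleic acid that can trigger cell death, was at 50.9 and 16 CPM (log2 ratio -1.61, -2.44 to -0.97). Ddx58, which encodes RIG-I, and Dhx58, which encodes the related LGP2, had log2 ratios of -0.97 and -0.89. Only Ifih1 of these sensors was higher in the KO library.

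Isg15 encodes a ubiquitin-like protein that is attached to other proteins, and its partners in the list are Usp18, which removes it and restrains the receptor, and Herc6, a ligase that attaches it. Isg15 had 312 UMIs in the WT and 593 in the KO cells, or 159 and 473 CPM (log2 ratio 1.57, 1.38 to 1.78). Usp18 had 22.4 and 9.57 CPM (log2 ratio -1.14, -2.28 to -0.28), and Herc6 18.3 and 24.7 (log2 ratio 0.41, -0.31 to 1.17). The ligand and its protease thus lay on opposite sides, and the interval of Herc6 included 0.

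The IFIT proteins bind foreign RNA and block its translation, and IFITM3 blocks the entry of viruses at membranes. Ifit1 was at 29.5 CPM in the WT and 106 in the KO cells (58 and 133 UMIs), a log2 ratio of 1.81 (1.39 to 2.32). Ifit2 was at 31.5 and 106 CPM (log2 ratio 1.72, 1.31 to 2.21). Ifit3 was not higher, with 42 UMIs in the WT and 17 in the KO cells (log2 ratio -0.62, -1.56 to 0.19), although Ifit1, Ifit2, Ifit3 and Ifit3b are neighbours on chromosome 19. Ifit3b had 9 and 2 UMIs and stayed under the limit. Ifitm3 was at 509 and 345 CPM (log2 ratio -0.56, -0.73 to -0.40).

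The Ifit3 and Ifit3b reads may not all be assigned with certainty, because the transcripts are 98.0% identical over 1697 aligned bases. Within the last 500 bases, nearer the end that the kit reads, only 197 bases aligned, and these were 94.9% identical. How far reads were shared between the genes was not tested. Their promoters at chr19:34583358-34583431 and chr19:34607754-34607827 (plus strand) are shown because the stretch around the matches is the same in both genes.
Ifit3: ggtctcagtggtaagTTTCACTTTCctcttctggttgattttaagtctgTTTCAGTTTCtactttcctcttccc
Ifit3b: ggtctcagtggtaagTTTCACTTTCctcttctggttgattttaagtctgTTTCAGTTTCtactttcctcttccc

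Of the OAS family Oasl1 alone was higher in the KO resident macrophage-like cells. Oas1a, Oas2 and Oas3, which make the second messenger that activates RNase L, were lower in the KO cells, at 31.0, 17.8 and 20.3 CPM in the WT and 13.6, 3.99 and 5.58 in the KO library. In the main grouping Oasl1, an OAS-like protein that inhibits the translation of Irf7 mRNA, was the highest of the members by its ratio. Under the alternatives Ifit1 reached a log2 ratio of 2.85, and Oasl1 at most 2.54. The level of Oasl1 was 73.2 CPM in the WT and 342 in the KO cells (144 and 429 UMIs, log2 ratio 2.21, 1.95 to 2.51). Oasl2 went the other way, at 71.2 and 35.9 CPM (log2 ratio -0.97). Transcripts of Oasl1 and Oasl2 were 71.5% identical over their aligned bases, less than the Ifit3 pair.

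Among the other antiviral effectors, Rsad2, which encodes viperin, was at 133 CPM in the WT and 375 in the KO cells (262 and 470 UMIs; log2 ratio 1.49, 1.27 to 1.72). Its neighbour on chromosome 12, Cmpk2, a nucleotide kinase, had 25 and 12 UMIs and a log2 ratio of -0.38 (-1.54 to 0.64). Isg20, an RNA exonuclease, had 22 and 3 UMIs (log2 ratio -1.84, -4.61 to -0.49). Slfn5 was at 151 and 56.6 CPM (log2 ratio -1.40), Mx1, a GTPase that blocks influenza virus, at 17.8 and 7.98 (-1.07), and Bst2, which tethers budding virus to the cell surface, at 345 and 223 (-0.63). Eif2ak2, the kinase PKR, and Samd9l had intervals that included 0.

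Of the remaining induced genes none was at least 2-fold higher in the KO resident macrophage-like cells. Parp14, an ADP-ribosyltransferase, came closest, at 70.7 and 138 CPM (log2 ratio 0.96, 0.64 to 1.30), just inside 2-fold. Lgals3bp, a secreted glycoprotein that binds galectin-3, had 692 UMIs in the WT and 114 in the KO cells, or 352 and 91.0 CPM (log2 ratio -1.94, -2.25 to -1.66). Xaf1 was at 34.6 and 11.2 (log2 ratio -1.55, -2.58 to -0.79), and Ifi27l2a at 726 and 302 (log2 ratio -1.26). Rtp4 was level, at 35.6 and 35.9 CPM (log2 ratio 0.01, -0.56 to 0.57), and Ifi204 had a log2 ratio of 0.15.

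**Figure D1:**
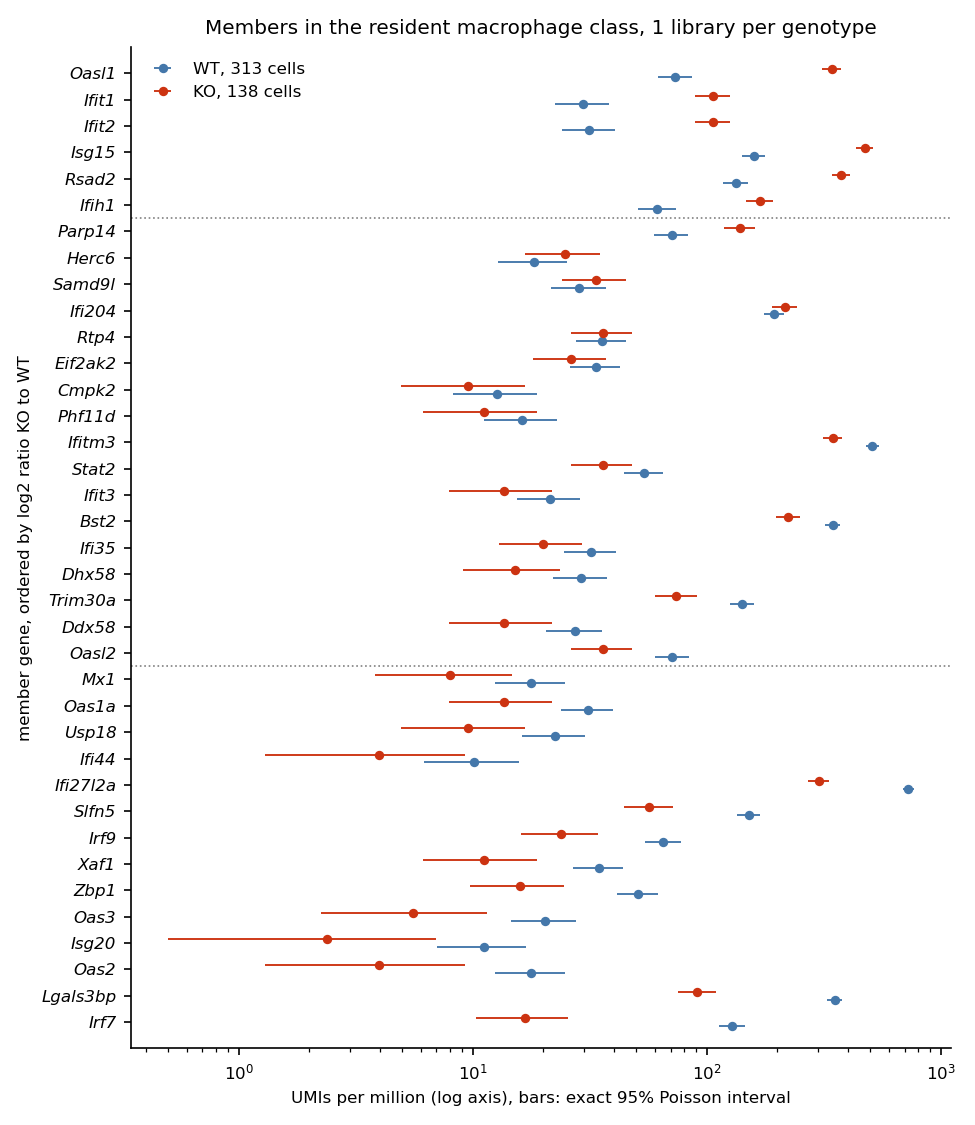
Level of each member with at least 20 UMIs in resident macrophage-like cells (x axis, CPM on a log axis; blue WT, 313 cells; red KO, 138 cells; bars are exact 95% Poisson intervals), ordered by the log2 ratio of KO to WT, with dotted lines at 2-fold. Oasl1, Ifit1, Ifit2, Isg15, Rsad2 and Ifih1 lie above the upper line with intervals that do not meet, whereas Irf7 and Lgals3bp lie at the bottom, at 16.8 against 129 and 91.0 against 352 CPM.

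For Oasl1, Irf7 and Isg15 the share of cells with a UMI gave the same split. This was also so after each cell was thinned to 2000 UMIs, which left out 68 WT and 20 KO cells under that depth. Before thinning, the shares were closer than the levels for Ifit2 (36 of 313 WT and 24 of 138 KO cells) and Rsad2 (70 of 313 and 44 of 138). A UMI of Oasl1 was present in 20.8% of the WT cells (65 of 313; exact interval 16.4% to 25.7%) and in 57.2% of the KO cells (79 of 138; 48.5% to 65.6%). After thinning the shares were 11.0% and 37.3%. For Irf7 they were 32.9% and 9.42% before thinning and 16.7% and 2.54% after it. Isg15 was detected in 44.1% of WT and 65.2% of KO cells, and in 26.1% of WT and 59 of 118 KO cells after thinning. As the background, B cell-like cells, with a median of 2978 UMIs in the WT and 4394 in the KO library, had an Oasl1 UMI in 4.52% and 3.53% of cells and an Isg15 UMI in 7.04% and 4.71%. The median depth of the resident macrophage-like cells was 5183 UMIs in the WT and 7160.5 in the KO library.

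The UMIs of several members were concentrated in few cells, in both libraries. The 14 KO resident macrophage-like cells with most UMIs of a gene, out of 138, held 92.5% of the Ifit2, 81.2% of the Ifit1 and 80.4% of the Rsad2 UMIs, and a single cell held 71 of the 470 Rsad2 UMIs. For Oasl1 and Isg15 the top 14 cells held 53.4% and 53.6%. Of the 114 Lgals3bp UMIs, lower in the KO cells, the top 14 cells held 64.9%. In the WT library the top 32 cells out of 313 held 83.2% of the 262 Rsad2 and 77.1% of the 144 Oasl1 UMIs. For members with few UMIs such a share is set by the count and is not given. Summed over all members, the median cell had 27.2 member UMIs per 10000 UMIs in the WT and 28.6 in the KO library, with quartiles of 13.7 to 47.0 and 16.8 to 41.4. The summed level of the median cell was therefore close in both libraries, while single members differed.

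Ifnb1, which encodes IFN-β and is not a member, had no UMI in the 313 WT resident macrophage-like cells and 268 UMIs in the 138 KO cells. A count of 0 allows up to 1.53 CPM in the WT cells (3 UMIs in all of them). The KO level of 214 CPM was 140-fold this limit, without the counting error of the KO level. The UMIs came from 42 KO cells, 30.4% of the class, and from 26 of 118 after thinning, and no B cell-like cell of either library had one. Over all cells 4 Ifnb1 UMIs were counted in the WT and 776 in the KO library, in 2 and 128 cells. Other type I ligands were near the floor: Ifna2 had 5, Ifnab 2, Ifnk 4 and Ifnz 1 UMI, all in the KO library.

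The higher members were higher still in the KO cells that carried an Ifnb1 UMI. In these 42 cells, with a median depth of 8695.5 UMIs, Rsad2 was at 930 CPM, compared with 104 in the 96 KO cells without one, whose median depth was 6716.5. Ifit2 was at 292 and 15.4 CPM, Ifit1 at 217 and 52.2, Isg15 at 867 and 281, Oasl1 at 680 and 178, and Ifih1 at 287 and 110. Members that were level or lower in the KO class were not of one kind. Ifi204 was at 378 and 136 CPM in the cells with and without an Ifnb1 UMI, Rtp4 at 82.8 and 13.1, and Slfn5 at 92.6 and 39.2. Irf7 had 16 UMIs in the 42 cells and 5 in the 96, whereas Ifitm3 (346 and 344), Bst2 (219 and 224) and Irf9 (24.4 and 23.7) were close. Deeper cells more easily show an Ifnb1 UMI, and the part of depth in this difference was not tested.

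Without the cells that had an Ifnb1 UMI, a comparison added after the data had been seen, only Oasl1 of the members remained at least 2-fold higher in the KO resident macrophage-like cells, with a log2 ratio of 1.27 (0.94 to 1.62), compared with 3.84% of all genes. Ifih1, Isg15 and Ifit1 were within 2-fold (log2 ratios 0.83, 0.82 and 0.80), whereas Ifit2 and Rsad2 were no longer higher (-0.99 and -0.35). The members at least 2-fold lower then numbered 21, compared with 8.10% of all genes. The cells left out were all KO cells, since no WT cell of the class had an Ifnb1 UMI. They were the KO cells with the higher levels of these members, whereas WT cells with high levels stayed in. Part of the change in these counts therefore follows from the choice of cells, and how much was not tested.

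**Figure D2:**
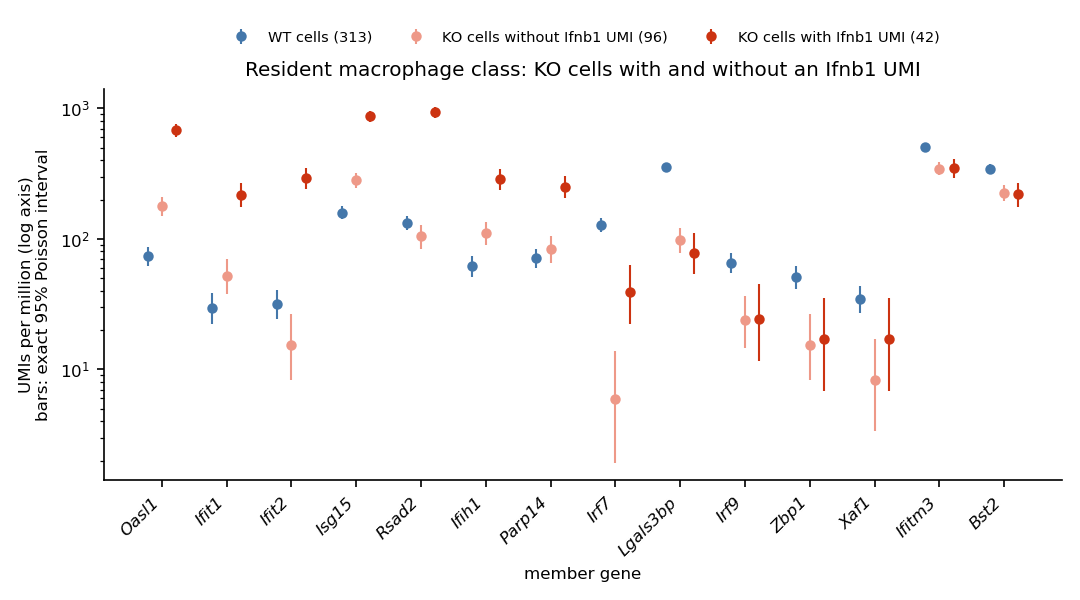
Level of 14 members in resident macrophage-like cells (y axis, CPM on a log axis; bars are exact 95% Poisson intervals) for WT cells, KO cells without an Ifnb1 UMI and KO cells with one. Rsad2 and Ifit2 of the KO cells without an Ifnb1 UMI (104 and 15.4 CPM) lie at or below the WT cells (133 and 31.5), whereas Irf9, Lgals3bp, Ifitm3 and Bst2 are below the WT cells in both kinds of KO cell.

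Receptors and kinases that sense interferon were also measured in resident macrophage-like cells. The receptor chains Ifnar1 and Ifnar2 were at 88.5 and 55.1 and at 207 and 161 CPM (log2 ratios -0.67 and -0.36). Stat3 and Jak2 had log2 ratios of 0.18 and 0.28, and Ptpn6, a phosphatase that restrains the kinases, was at -0.78.

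Of 14 genes that lead to the induction of interferon, 13 passed the limit, with none higher (3.60% of all genes) and 2 lower by at least 2-fold (7.75%), and a median log2 ratio of -0.33 compared with -0.20 for all genes. The lowest were Tmem173, the adaptor STING, at 62.5 and 27.9 CPM (log2 ratio -1.14, -1.75 to -0.61), and Tlr3, a receptor for double-stranded RNA, with 25 and 7 UMIs (-1.06, -2.64 to 0.06). Ticam1 and Mavs, the adaptors of TLR3 and of the RIG-I-like sensors, had the highest log2 ratios, 0.44 and 0.57, and Irf3 was at 15.8 and 15.2 CPM. GTPases that respond above all to interferon gamma were listed for comparison: 11 of 15 passed, none was higher (3.60% of all genes) and 4 were lower (7.75%), with a median of -0.94. Iigp1 and Gbp2 were the lowest of them, at -3.11 and -2.32, and Igtp and Gbp4 the highest, at -0.38 and -0.29.

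Markers of other cells also differed inside the resident macrophage-like class, and their part in the results was not tested. The 10 inflammatory monocyte markers summed to 1141 CPM in the WT and 517 in the KO cells, with 8 of 10 higher in the WT. The 10 cDC2 markers summed to 292 and 1060, with 9 of 10 higher in the KO. Epithelial markers, of which 8 in the WT and 7 in the KO cells had a UMI, summed to 135 and 55.1, and plasma cell markers to 373 and 152. Of 17 genes that respond to tissue dissociation, 4 were at least 2-fold higher in the KO cells (3.60% of all genes) and none lower (7.75%), with a median of 0.40, led by the heat-shock genes Hspa1b and Hspa1a with log2 ratios of 1.68 and 1.52, whereas Junb and Nr4a1 were lowest at -0.62 and -0.60.

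Inflammatory monocyte-like cells, marked by Ly6c2, Ccr2, F10 and Vcan among others, numbered 583 in the WT and 393 in the KO library. As a class their members were balanced: the median log2 ratio was 0.02, compared with -0.18 for all genes, 2 of 38 members were at least 2-fold higher (2.83% of 9060 genes) and 1 was lower (7.60%). Ifitm3 had 4160 UMIs in the WT and 11029 in the KO cells, or 1304 and 3368 CPM (log2 ratio 1.37, 1.32 to 1.42). Within the clusters of this class it was at 1.27 (cluster 0) and 0.58 (cluster 5). It was also within 2-fold with the stricter cell filter (0.62) and with 4000 variable genes (0.68), where fewer WT cells were in the class (47 and 102). Ifit3b, the other, had 10 and 27 UMIs, subject to the uncertain assignment of reads described above. Ifi44 was the lower one, with 76 and 14 UMIs (23.8 and 4.27 CPM; log2 ratio -2.23, -3.42 to -1.64), although its log2 ratio was 0.21 with the stricter cell filter.

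The other named members of this class lay within 2-fold. Mx1, Oasl1, Rsad2 and Isg20 followed Ifitm3, with log2 ratios of 0.69, 0.68, 0.66 and 0.63 and intervals above 0. Their direction was not stable under the 15 alternatives: the lowest values were -0.67, -1.15, -1.47 and -0.20. Rsad2 was at 192 CPM in the WT and 304 in the KO cells, and Oasl1 at 77.4 and 124. Lgals3bp, Stat2, Oasl2 and Dhx58 were lowest after Ifi44, at -0.76, -0.70, -0.58 and -0.49, and of these only Lgals3bp stayed below 0 in all 15 alternatives. Irf7, so low in KO resident macrophage-like cells, was at 219 and 168 CPM (log2 ratio -0.38), and Isg15 at 339 and 355 (0.07, -0.05 to 0.19).

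The class joined clusters that the libraries filled differently. Cluster 0, led by Ly6i, Inhba, Fcgr1, Cxcl9 and Ly6c2 and with Rsad2 among its 10 leading genes, held 552 WT and 129 KO cells. Cluster 5, led by Chil3, Ace, Lyz2, F10 and Hp, held 31 WT and 264 KO cells. Within cluster 0 the median log2 ratio of the 38 members was 0.90, compared with -0.15 for all genes, and 17 members were at least 2-fold higher (2.81% of 8293 genes) and 1 lower (7.90%). Rsad2 was at 203 CPM in the WT and 916 in the KO cells of this cluster (log2 ratio 2.17, 2.02 to 2.33), Isg15 at 354 and 949 (1.42), Oasl1 at 81.5 and 364 (2.14) and Ifit1 at 51.6 and 191 (1.87). Irf7, which was lower in KO resident macrophage-like cells, was at 226 and 329 CPM in this cluster (0.54, 0.34 to 0.74). The UMIs of such members lay in few cells of the monocyte class in both libraries. The 40 KO cells with most UMIs of a gene, out of 393, held 88.2% of the Rsad2 and 80.3% of the Oasl1 UMIs. In the WT library the top 59 cells out of 583 held 83.8% and 78.9%. These shares are for the class and not for cluster 0 alone.

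In cluster 5 the median of 32 members was 0.17, with 5 higher (10.4% of 6893 genes) and 2 lower (7.57%), a share of higher members near the background. Isg15 was at 121 CPM in its WT and 136 in its KO cells, and Ifit1 had 0 and 6 UMIs. Of the Ifnb1 UMIs, 120 in the KO and 2 in the WT cells fell in cluster 0, compared with 5 and 0 in cluster 5, but 109 of the 120 came from a single cell, and 3 KO cells of cluster 0 had any. Epithelial markers were higher in the WT cells of the class, 8 of 8, with sums of 146 and 23.2 CPM, and neutrophil markers were higher in the KO cells, 6 of 8, with sums of 421 and 791. The 12 resident macrophage markers summed to 4024 and 1973 CPM, with 9 of 12 higher in the WT. The part of these markers in the monocyte values was not tested.

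**Figure D3:**
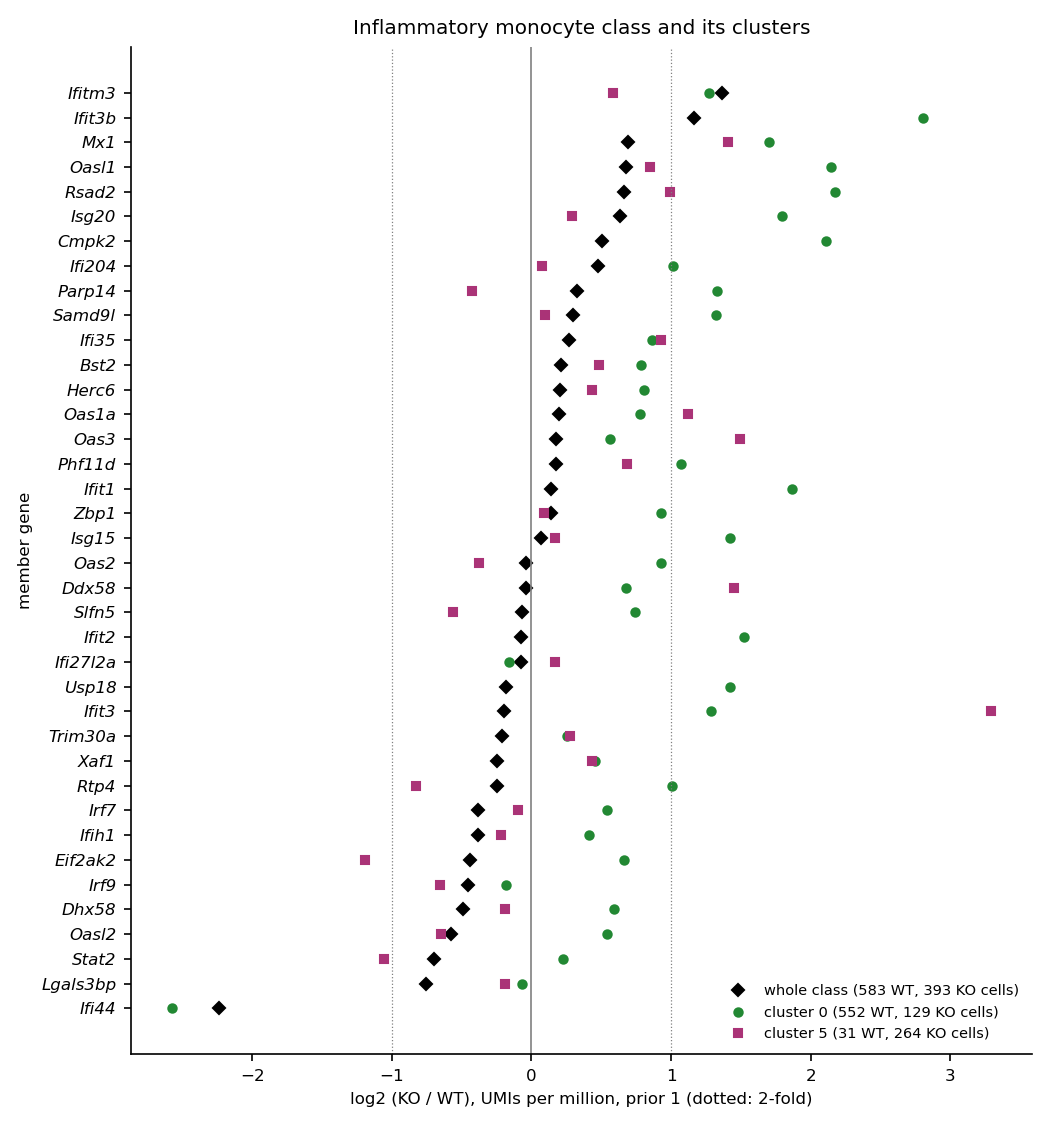
Log2 ratio of KO to WT (x axis, CPM with 1 added) of each member with at least 20 UMIs in inflammatory monocyte-like cells as a class (black diamonds), in cluster 0 (green circles) and in cluster 5 (purple squares), with dotted lines at 2-fold. Most green circles lie to the right of the black diamonds, with medians of 0.90 in cluster 0, 0.17 in cluster 5 and 0.02 in the class.

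The class of cluster 0 depended on how the cells were grouped, and with it the values of the monocyte class. Most of its WT cells went to the resident macrophage-like class with 4000 variable genes, with the interferon genes among the variable genes, with the stricter filter and at the lower clustering resolution, where the WT resident macrophage-like cells numbered 854, 814, 764 and 867 in place of 313. The monocyte median ranged from -0.87 to 0.90 over all alternatives tried. In resident macrophage-like cells the direction of these members was the same in each of the 14 alternatives run: the log2 ratio of Oasl1 was between 1.27 and 2.54, Isg15 between 0.82 and 1.77, Irf7 between -4.23 and -0.91 and Lgals3bp between -2.40 and -1.24. Rsad2 and Ifit2 were below 0 in 1 of the 14 alternatives, that without the cells with an Ifnb1 UMI. Zbp1, Xaf1 and Ifit1 also kept their direction, with log2 ratios between -1.79 and -0.34, between -1.93 and -0.86 and between 0.80 and 2.85. Irf7, Isg15, Zbp1, Xaf1 and Ifit1 did not stay at least 2-fold apart in every alternative.

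When the macrophage and monocyte classes were summed, which removes the border between them, 2 of 38 members were at least 2-fold higher (2.85% of 10169 genes) and 2 lower (5.16%). Ifitm3 (1001 and 2531 CPM, log2 ratio 1.34) and Oasl1 (75.8 and 185, 1.27) were the higher ones, followed by Rsad2 (0.93), Ifit1 (0.71) and Ifit2 (0.63). Ifi44 (18.6 and 4.20, log2 ratio -1.92) and Lgals3bp (217 and 82.1, -1.39) were the lower ones, followed by Irf9 (-0.63), Stat2 (-0.62) and Oasl2 (-0.62). The median of the members was 0.06 and that of all genes -0.17. When the unnamed cluster led by Retnla and Lpl (16 WT and 126 KO cells) was added, the median was -0.19.

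Conventional dendritic cell-like classes had more members lower than higher by 2-fold in the KO library. In cDC1-like cells (118 WT and 303 KO cells; Xcr1 and Clec9a), none of 35 members was at least 2-fold higher (3.42% of 9622 genes) and 15 were lower (2.84%), with a median log2 ratio of -0.90 compared with -0.12 for all genes. Oasl2 had 34 UMIs in the WT and 23 in the KO cells, or 24.6 and 4.36 CPM (log2 ratio -2.26, -3.33 to -1.69), and Ifi27l2a was at 492 and 144 (-1.77, -1.92 to -1.62). Herc6 and Mx1 had the highest log2 ratios, 0.63 and 0.51, with intervals that included 0. Rsad2, higher in KO resident macrophage-like cells, was at 36.9 and 17.8 CPM here (-1.01). These values are for the class as a whole, which joined 2 clusters that the libraries filled differently. Cluster 6, led by Xcr1, held 91 WT and 201 KO cells, and cluster 13, led by Pclaf, Hist1h2ae and Top2a, held 27 and 102. Inflammatory monocyte markers summed to 1670 CPM in the WT and 764 in the KO cDC1-like cells (6 of 10 higher in the WT, 1 of them at 1124 CPM). Epithelial markers summed to 111 and 45.7 (8 of 8 higher in the WT), B cell markers to 49.9 and 8.72 (8 of 8) and plasmacytoid dendritic cell markers to 190 and 129 (6 of 8). Neutrophil markers summed to 9.40 and 169 (8 of 8 higher in the KO) and resident macrophage markers to 138 and 268 (9 of 12 higher in the KO). The part of these markers was not tested.

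In cDC2-like cells (215 WT and 482 KO cells) 3 of 36 members were at least 2-fold higher (3.69% of 9649 genes) and 17 lower (6.85%), with a median log2 ratio of -0.97 compared with -0.22 for all genes. The 3 were Ifit1, at 9.77 and 66.6 CPM (log2 ratio 2.65, 2.17 to 3.44), Oasl1, at 24.2 and 123 (2.30, 1.96 to 2.76), and Ifih1, at 27.6 and 66.2 (1.23). The lowest were Irf7, at 67.1 and 5.15 (-3.47, -4.26 to -3.18), and Zbp1, at 51.4 and 9.19 (-2.36, -2.94 to -2.04). The directions of these 5 genes were those of the resident macrophage-like cells. Inflammatory monocyte markers summed to 1861 CPM in the WT and 781 in the KO cDC2-like cells (6 of 10 higher in the WT), plasmacytoid dendritic cell markers to 229 and 127 (8 of 8), plasma cell markers to 227 and 107 (7 of 8) and epithelial markers to 120 and 47.9 (6 of 7), and their part was not tested.

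The KO cDC2-like cells came from cluster 2 (212 WT and 357 KO cells) and from cluster 14 (3 WT and 125 KO cells), which was led by Mgl2, Ccl17 and Ear2 and had Ifit1 among its leading genes. Within cluster 2 only Oasl1 stayed at least 2-fold higher (1 of 35 members, 2.74% of 9234 genes; log2 ratio 1.59, 1.19 to 2.12), 23 members were lower (7.04%), and the median was -1.24. Ifit1 was at 9.11 and 7.74 CPM there (-0.21), so that its higher level in the KO class lay in cluster 14. In the 37 KO cDC2-like cells with an Ifnb1 UMI, Ifit1 was at 431 CPM, compared with 33.7 in the other 445, and Isg15 at 954 and 182. The median depths of these cells were 16365 and 14215 UMIs.

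Neutrophil-like cells (85 WT and 267 KO cells; S100a8 and S100a9) had 3 of 33 members at least 2-fold higher (5.68% of 4136 genes) and 6 lower (15.9%), with a median log2 ratio of -0.08 compared with -0.23. Isg20 had 9 UMIs in the WT and 174 in the KO cells, or 37.5 and 198 CPM (log2 ratio 2.37, 1.45 to 3.56), and Ifit1 was at 104 and 163 (0.64, 0.03 to 1.32). Slfn5, at 404 and 163 (-1.30, -1.69 to -0.92), and Bst2, at 133 and 70.7 (-0.90), were the lowest of those with at least 50 UMIs. Isg15 was nearly level in these cells, at 575 and 638 CPM (0.15, -0.12 to 0.43). Resident macrophage markers summed to 1794 CPM in the WT and 760 in the KO neutrophil-like cells (10 of 12 higher in the WT), cDC2 markers to 408 and 90.1 (8 of 10) and epithelial markers to 254 and 62.7 (7 of 8), and their part was not tested.

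Eosinophil-like cells (196 WT and 409 KO cells) were shallow, with a median of 750 and 971 UMIs, and only 8 members passed the limit, none higher (8.12% of 3867 genes) and 1 lower (5.28%). That member was Ifi27l2a, with 17 and 14 UMIs (log2 ratio -1.61), and Samd9l had 13 and 51 UMIs (0.60, -0.29 to 1.61). At this depth most members were not measurable. Mast cell markers summed to 6030 CPM in the WT and 71.4 in the KO eosinophil-like cells (6 of 8 higher in the WT and none in the KO), plasma cell markers to 819 and 136 (7 of 8) and epithelial markers to 446 and 36.8 (8 of 8), and their part was not tested.

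T cell-like cells (243 WT and 111 KO cells) had 2 of 26 members at least 2-fold higher (4.77% of 7669 genes) and 12 lower (13.1%), with a median log2 ratio of -0.89 compared with -0.20. Ifitm3 had 40 UMIs in the WT and 139 in the KO cells (27.1 and 188 CPM; log2 ratio 2.75, 2.28 to 3.34). The 139 UMIs came from 15 of 111 cells, and 68 of them from a single cell. Irf7, next among those with at least 50 UMIs, was level at 35.9 and 37.8 CPM (0.07). The other higher member was Oasl1, with 7 and 20 UMIs (log2 ratio 2.29). Zbp1 and Rsad2 were the lowest of those with at least 50 UMIs, each with 6 UMIs in the KO library, at 35.2 and 33.9 CPM in the WT and 8.11 in the KO cells (-1.99 and -1.94). The class joins 3 clusters, of which the one led by Gzma and Gzmb held 144 WT and 32 KO cells. Markers of NK cells or ILCs summed to 11048 CPM in the WT and 1480 in the KO T cell-like cells (5 of 9 higher in the WT), and plasma cell markers to 1778 and 126 (8 of 8). Epithelial markers summed to 197 and 48.6 (8 of 8 higher in the WT), and mast cell markers to 1668 and 123 (5 of 8). Myeloid markers were mostly higher in the KO T cell-like cells, with sums of 80.6 and 324 CPM for cDC2 (9 of 10 higher in the KO), 41.3 and 192 for neutrophils (7 of 8) and 148 and 238 for resident macrophages (9 of 12), while monocyte markers summed to 954 and 382, although 6 of 10 were higher in the KO and 3 in the WT, 1 of them at 730 CPM. The part of these markers was not tested.

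In B cell-like cells (199 WT and 85 KO cells) 10 members passed, none higher (1.86% of 5791 genes) and 4 lower (10.3%). Ifitm3 had 62 and 2 UMIs, or 79.0 and 5.08 CPM (log2 ratio -3.72, -7.04 to -2.05), and Ifi27l2a had 293 and 34 (-2.10, -2.67 to -1.60). Samd9l was level, at 45.9 and 45.7 CPM, and Irf9 was at 65.0 and 40.6 (-0.67, -1.59 to 0.16). The WT Ifitm3 UMIs came from 20 of 199 cells. Neutrophil markers summed to 973 CPM in the WT and 20.3 in the KO B cell-like cells (7 of 8 higher in the WT), monocyte markers to 1118 and 729 (9 of 10) and resident macrophage markers to 1054 and 828 (12 of 12), and their part in the Ifitm3 value was not tested.

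**Figure D4:**
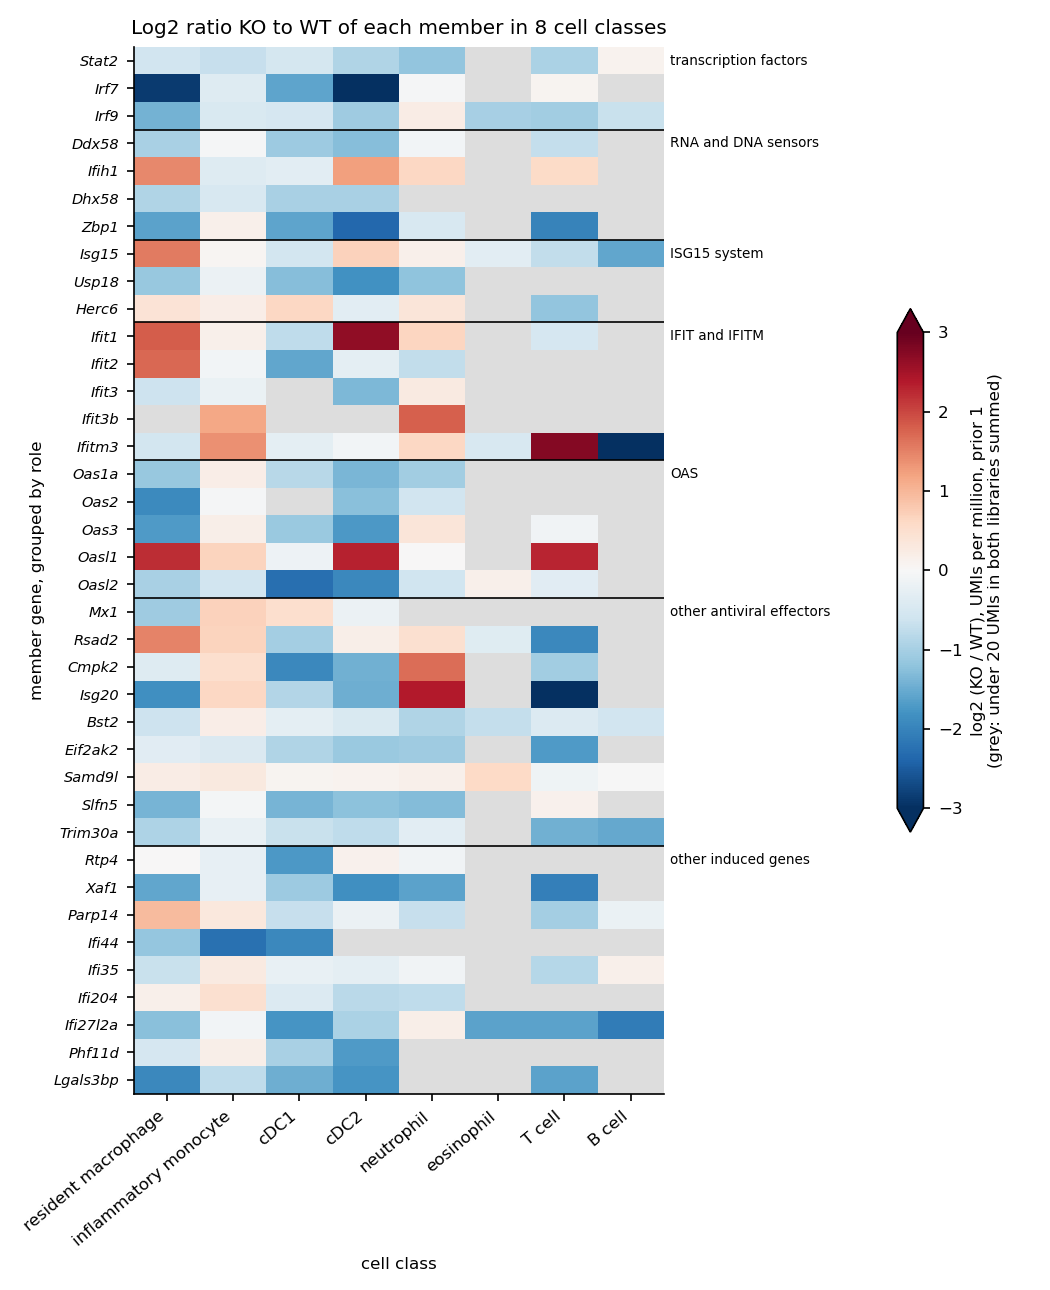
Log2 ratio of KO to WT of 38 members (rows, grouped by role) in 8 cell classes (columns); red is higher and blue lower in the KO library, colours end at 3 in each direction, and grey marks under 20 UMIs. Oasl1 and Ifit1 are red in resident macrophage-like and cDC2-like cells, Irf7 and Zbp1 are blue there, and the monocyte column is pale apart from Ifitm3, Ifit3b and Ifi44.

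Over all kept cells, where differences in composition also enter, 1 of 38 members was at least 2-fold higher (2.69% of 14006 genes) and 5 were lower (13.4%), with a median log2 ratio of -0.37 compared with -0.24. Across the 8 classes that held 50 cells or more of both genotypes, 10 of 38 members were at least 2-fold higher in 1 or more classes (16.1% of 10869 genes) and 29 were lower in 1 or more (31.1%). In both directions there were 6, compared with 4.21% of the 9849 genes that passed the limit in more than 1 class. With at least 50 UMIs and intervals that did not include 0, 3 of 34 members remained (Ifitm3, Isg20 and Rsad2), compared with 1.80% of 7901 genes. Ifih1, Ifit1, Ifit3b and Oasl1 passed 2-fold in the higher direction alone, Oasl1 in 3 classes (resident macrophage-like, cDC2-like and T cell-like). Isg15, Ifit2, Ifitm3, Rsad2, Cmpk2 and Isg20 did so in both directions. Xaf1 was at least 2-fold lower in 5 of the 6 classes where it passed the limit, and Ifi27l2a in 5 of 8. Dhx58, Bst2, Samd9l, Ifi35 and Ifi204 stayed within 2-fold in every class in which they had at least 20 UMIs.

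**Figure D5:**
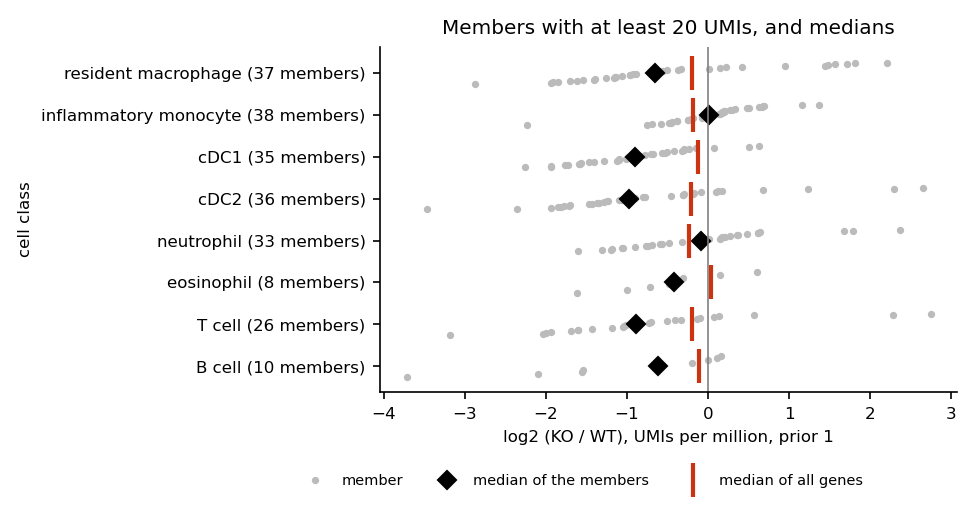
Log2 ratio of KO to WT (x axis) of the members with at least 20 UMIs (grey points), their median (black diamonds) and the median of all genes (red bars) in 8 cell classes. The median of the members is below that of all genes in resident macrophage-like, cDC1-like, cDC2-like, eosinophil-like, T cell-like and B cell-like cells, and above it in inflammatory monocyte-like (0.02 against -0.18) and neutrophil-like cells (-0.08 against -0.23).

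Among these 8 classes, the one with the highest level of a member was most often neutrophil-like (19 of 38 members) or inflammatory monocyte-like cells (14) in the WT library, and inflammatory monocyte-like (19) or neutrophil-like cells (13) in the KO library. Resident macrophage-like cells were highest for 2 members in the WT and 4 in the KO library. All 38 members were ranked by their level, also those with few UMIs, and counting error was not considered. The WT neutrophil-like class held only 85 cells and 240183 UMIs, so its ranks rest partly on few UMIs. No count over all genes is given beside these ranks. Irf7 was highest in inflammatory monocyte-like cells of both libraries, at 219 and 168 CPM, followed in the WT by resident macrophage-like cells at 129 and in the KO by neutrophil-like cells at 119. Isg15 was highest in neutrophil-like cells of the WT library (575), and in the KO library neutrophil-like (638) and resident macrophage-like cells (473) led.

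The summed level of the members was weighted to a few genes in some classes. In inflammatory monocyte-like cells the sum was 6097 CPM in the WT and 8228 in the KO library, and Ifitm3 alone held 21.4% of it in the WT and 40.9% in the KO cells. In resident macrophage-like cells the sum was 3771 and 3407, and the top 3 genes held 42.1% of it in the WT and less in the KO cells. There the leading gene was Ifi27l2a in the WT (19.2% of the member UMIs) and Isg15 in the KO cells (13.9%), followed by Rsad2 (11.0%).

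GTPases of the interferon gamma response were counted in the other classes as well. Of those that passed the limit, 9 of 14 were at least 2-fold lower in inflammatory monocyte-like cells (7.60% of all genes), 6 of 9 in cDC1-like (2.84%), 8 of 10 in cDC2-like (6.85%), 8 of 9 in neutrophil-like (15.9%), 5 of 12 in T cell-like (13.1%) and 3 of 4 in B cell-like cells (10.3%). None was at least 2-fold higher in these classes, and none passed in eosinophil-like cells. Gbp4 was lowest in the monocyte class (log2 ratio -2.54), followed by Gbp8 with 33 and 6 UMIs, and Irgm2 and Gbp9 highest (-0.03 and -0.63). Ifng, the gene of interferon gamma itself, had 261 UMIs in the WT and 28 in the KO T cell-like cells, and 66 and 224 in NK cell- or ILC-like cells (26 WT and 41 KO cells). Its level in T cell-like cells was 177 CPM in the WT and 37.8 in the KO library, and in NK cell- or ILC-like cells 438 and 1219. The T cell-like cluster led by Gzma and Gzmb held 144 WT and 32 KO cells, and the part of composition was not tested.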

How the data were processed

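Gene-by-cell UMI counts were deposited by the authors, 1 matrix per library, made from a 3′ kit with Cell Ranger 3.0.2 per the file headers, and the submitters' processing notes name mm10 and Seurat 4. The members and gene lists were chosen with earlier results of these data known. Cells with 200 to 6000 genes and at most 15% mitochondrial UMIs were kept, which left 2597 of 3185 WT and 2514 of 3020 KO barcodes (total UMIs 18994564 and 22331342). The study's text gives larger numbers of WT and KO cells than the barcodes analysed here, and it does not say whether the pooled mice were counted per genotype.

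Counts were scaled to 10000 per cell and log-transformed, and 2000 variable genes without interferon-related genes, 30 principal components, 15 neighbours and Leiden clustering at resolution 1 were used (scanpy 1.11.5, leidenalg 0.10.2). A cluster was named by its markers where at least 3 were raised 2-fold and no other class had more markers among its 10 leading genes. The latter left the Retnla and Lpl cluster (16 WT and 126 KO cells) unnamed, with 6 of 12 resident macrophage markers raised. Names were rebuilt here and may differ from those of the study, which clustered with DESC. Scrublet called 1 WT and 9 KO cells (0.0385% and 0.358%), too few to count as a working call, so no doublets were removed, and the highest 3% of scores were left out as an alternative.

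Raw counts were summed per class and library. Levels had exact Poisson and ratios exact conditional binomial intervals (scipy 1.17.1). Classes with at least 50 cells per library in the main grouping were compared. This limit was not applied to single clusters or to the same classes under the alternatives, where the monocyte-like class had 47 WT cells with the stricter filter and 31 at resolution 0.5. Full values were given for the 5 highest and 5 lowest ratios among members with at least 50 UMIs in resident macrophage-like cells, inflammatory monocyte-like cells and their sum, and for 2 each in other classes. Further genes were named as members of a listed role or to show where a count came from. The interval and ratio code was tested on simulated counts. Transcripts came from GENCODE, and promoters came from RefSeq. The values of 1 gene of the pathway lists are not reported here.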

Additional observations from a re-analysis of the deposited data

Results flagged for a closer look

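For 3 of the 34 members with at least 50 UMIs in more than 1 class (1.80% of 7901 genes), the KO library was at least 2-fold higher in one cell class and at least 2-fold lower in another, with counting intervals on either side of 0. Other members had opposite directions with smaller ratios or fewer UMIs. None of these differences was tested, since each class had 1 library per genotype. Ifitm3 was higher in the KO library in T cell-like cells (log2 ratio 2.75) and lower in B cell-like cells (-3.72), a gap of 6.47 on the log2 scale that rests on 2 UMIs in the KO B cell-like cells, and 68 of the 139 UMIs in the KO T cell-like cells came from a single cell. Neutrophil markers were higher in the KO T cell-like cells (41.3 CPM in the WT and 192 in the KO) and in the WT B cell-like cells (973 and 20.3). Sums of cDC2 markers (80.6 and 324, 161 and 60.9) and resident macrophage markers (148 and 238, 1054 and 828) had the same directions. Monocyte markers summed higher in the WT cells of both classes (954 and 382, 1118 and 729). The part of all these markers was not tested. Isg20 was higher in neutrophil-like cells (2.37) and lower in cDC2-like cells (-1.47), a gap of 3.84. Rsad2 was higher in resident macrophage-like cells (1.49) and lower in T cell-like cells (-1.94), a gap of 3.42 that rests on 6 UMIs in the KO T cell-like cells.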

How the results depend on the processing

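No paired analysis was possible because each genotype had 1 library, and the ratios have no replicate check. Of the summary values under the alternatives, 216 stayed close to those reported and 51 moved, and of the values of single members 189 stayed close and 102 moved, while 3 that were reported past 2-fold changed direction. Counting smaller ratios too, 17 of 290 log2 ratios had the opposite sign, in 10 of the 20 comparisons of a member in a class. The median over the members kept its sign in 16 of 16 alternatives in resident macrophage-like cells (-1.29 to -0.20) and in all alternatives run in cDC1-like, cDC2-like, T cell-like, B cell-like and eosinophil-like cells. It kept it in 11 of 17 in monocyte-like cells, in 9 of 16 in the summed macrophage and monocyte classes and in 8 of 15 in neutrophil-like cells. Where values moved, the cause was not tested. Counts below are of members at least 2-fold higher or lower in the KO library.

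With the stricter cell filter 3 members were lower in monocyte-like cells, Ifi44 there was at 0.21, and the summed median was -0.39. With every deposited barcode 25 were lower in cDC1-like cells, cDC2-like cells had a median of -0.37 with 7 higher and 9 lower, monocyte-like cells -0.37 with 0 higher and 2 lower, and the summed median was -0.23. At clustering resolution 0.5 monocyte-like cells had 5 higher and 2 lower, resident macrophage-like cells 3 lower, and the summed median was -0.23. With 4000 variable genes 1 was higher in cDC1-like cells, monocyte-like cells had a median of -0.48 with 0 higher and 10 lower, and the summed median was -0.41. With interferon genes among the variable genes 23 were lower in cDC1-like cells, cDC2-like cells had a median of -0.35 with 7 higher and 10 lower, and monocyte-like cells -0.87 with 0 higher and 16 lower. With each library clustered alone monocyte-like cells had a median of -0.52 with 1 higher and 13 lower, and the summed median was -0.56. With classes by the highest marker score cDC2-like cells had a median of -0.53 with 9 lower, and monocyte-like cells -0.27 with 0 higher and 2 lower.

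With every cell weighted equally 1 was higher in cDC1-like and 5 in monocyte-like cells. With 10 CPM added, 6 were lower in cDC1-like, 6 in cDC2-like and 7 in resident macrophage-like cells, and 1 was higher in monocyte-like cells. With a minimum of 50 UMIs 9 were lower in cDC1-like and 9 in resident macrophage-like cells, and 1 was higher in monocyte-like cells, since fewer members passed. The following were chosen after seeing the data. With the Retnla and Lpl cluster added the summed median was -0.19. Without cells with an Ifnb1 UMI, all of them KO cells in this class, 1 member was higher in resident macrophage-like cells, and Ifit2 and Rsad2 were at -0.99 and -0.35. In cluster 0 alone the monocyte-like median was 0.90 with 17 higher, in cluster 5 alone 5 were higher and 2 lower, and in cluster 2 alone 1 was higher in cDC2-like cells. Eosinophil-like cells gave no value with each library clustered alone or with the minimum of 50 UMIs.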
